A study of Mus musculus with 4 samples.

Results

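The genes described here act in vesicle trafficking and secretion. They were taken by name, as the autosomal genes whose symbols begin with Rab, Vps, Snx, Sec, Stx or Arf and a digit, with Trappc, Tbc1d or Vamp, or with Cop and one of the letters a, b, e, g and z, with Trappc9 left out. This rule found 107 of the 8016 genes with a counted SNP in an exon, and 658 of the 45040 counted SNPs. The allele counts came from poly(A) RNA of the gonadal fat pad of chow-fed F1 mice of a cross between C57BL/6J (B) and DBA/2J (D), so that every animal carried one B and one D copy of each autosomal gene. The 4 libraries were each made from pooled RNA and are named by cross, with the mother's strain first, and sex. By the labels the DxB female pool holds 2 animals, and the pools of DxB males and of BxD mice of either sex hold 3 each, all aged 8 weeks, while the study's methods give another age. The B and D reads of 1 pool come from the same animals, and each combination of cross and sex has 1 pool.

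Cargo leaves the endoplasmic reticulum in vesicles coated by COPII and returns from the Golgi in vesicles coated by COPI, whose assembly depends on Arf GTPases. Rab GTPases mark the identity of membranes and are switched off by TBC domain proteins, tethering complexes such as TRAPP, GARP and HOPS hold vesicles to their target, and SNARE proteins fuse them. Sorting nexins and the retromer sort cargo in endosomes, and ESCRT proteins make multivesicular bodies. In fat cells these routes carry the glucose transporter GLUT4 to the cell surface and release secreted proteins.

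The pools held 3319126 to 4205099 counted autosomal exon reads, and the trafficking genes took 35345 to 45938 of them, between 1.02% and 1.09% of a pool. Their depth ran from 2 to 14669 reads a gene, with a median of 735 reads and 3 SNPs. Of the 107 genes, 101 had at least 10 reads and 89 had at least 100. The median standard error of the log2 D to B ratio was 0.13 for the 44 genes with at least 1000 reads and 0.75 for the 12 genes with 10 to 99 reads. The cross and sex of 2 pools are in doubt. The file names give the pool labelled DxB female as a BxD male and the pool labelled BxD male as a DxB female, and the reads of the X chromosome go against both labels. The exon read totals that the study lists for these pools also match the deposited counts by the file names and not by the labels. D reads made up 3.44% of X chromosome reads in the pool labelled DxB female, where both alleles would be present. They made up 31.6% in the pool labelled BxD male, where only the maternal B allele would be. In the pool labelled BxD female, where both would be, they made up 32.6%. The share was 61.0% in the pool labelled DxB male (4281 B and 6690 D reads), where only the maternal D allele would be. Label and file name agree for that pool, and the source of its B reads was not tested. The comparison of the B and D alleles within pools does not use cross or sex, and the comparisons that do are given with both identities. Of 10 listed adipocyte markers Lep, Cidec and Car3 had counted reads, and together they held 73710 to 107383 CPM (counts scaled to the TMM library size of the pool). The other 7 had none, nor had the 4 listed markers of skeletal muscle or the 6 of epididymis or ovary, but a gene without a listed SNP cannot be counted, so these zeros say nothing of its expression. Ucp1 and Cidea, 2 of 3 listed markers of brown fat, summed to 444 CPM in the pool labelled BxD male and to 2.42 to 34.0 in the other pools, and their part in the values below was not tested.

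The first question was which trafficking genes gave more reads from one parental allele. With the 4 pools as replicates, 23 of the 107 genes passed an adjusted p of 0.05 (edgeR quasi-likelihood test, adjusted over all 8013 genes tested), that is 21.5% against 17.9% of all genes. The B allele was higher in 18 of them, 16.8% against 13% of all genes, and the D allele in 5, 4.67% against 4.95%. The median log2 D to B ratio was -0.04 over the trafficking genes and -0.02 over all genes, and -0.01 when genes with no D read were set to the bound their depth allows. In 22 of the 23 genes all 4 pools moved the same way. When the alleles of a pool were paired, with the pool as a replicate block, 39 trafficking genes passed, or 36.4% against 28.3% of all genes. The B allele was higher in 26 of them, 24.3% against 16.8% of all genes, and the D allele in 13, 12.1% against 11.5%. All 23 were among the 39. When both alleles of a pool were given the same library size, so that the general excess of B reads was kept, the median of all genes moved from -0.02 to -0.14 and the split became 21 B-high to 2 D-high genes. The share of all genes called each way in that fit was not computed, so this split has no baseline.

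These 23 genes fell into classes by what their SNPs read. A SNP with under 1% of its reads from the D allele is called a B-only SNP below. Such a SNP measures the D allele only if D mice carry the listed D base, and their genotype was not tested here. The study sequenced DNA of D mice at some B-only SNPs, that of Rab4b among them, and found the B base at each. The B-high calls and fold bounds that rest on B-only SNPs are therefore statements on counted reads, and may not be differences in expression. Of the 18 B-high genes, 8 had B-only SNPs alone, 6 had B-only SNPs beside SNPs read from both alleles, and 4 had no B-only SNP. Among SNPs with at least 20 reads, 25 of 557 in trafficking genes were B-only and 0 were D-only, whereas over all genes 1339 of 30538 were B-only and 71 D-only. SNPs read from one allele thus made up 4.49% in trafficking genes and 4.62% over all genes. With every B-only and D-only SNP left out, 95 trafficking genes could be tested and 6 passed, 3 D-high (Snx26, Vps37a, Rab6) and 3 B-high (Trappc1, Sec22c, Stx12), or 6.32% against 9.15% of all genes (3.66% D-high and 5.49% B-high). Of these 6, all but Rab6 also passed with every SNP counted.

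**Figure D1:**
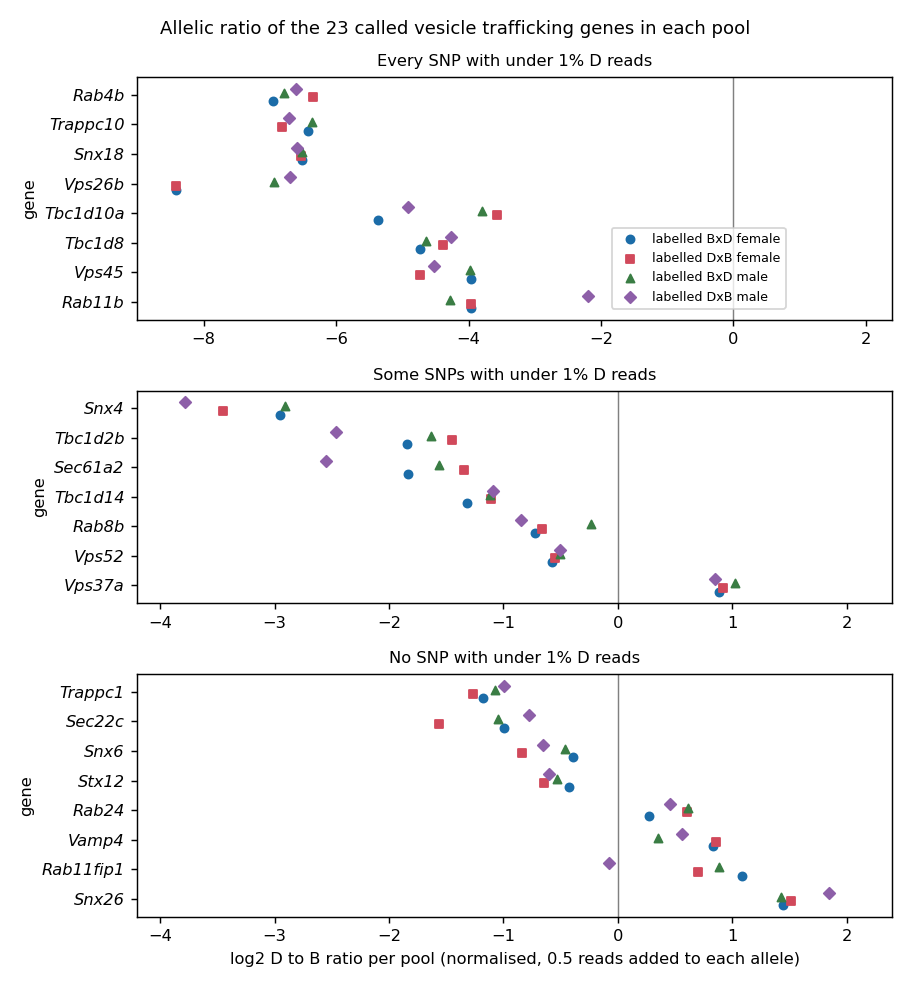
Normalised log2 D to B ratio (x axis, 0.5 reads added to each allele) of each of the 23 genes that passed (y axis) in each pool, named by its label, split by whether all, some or none of the gene's SNPs had under 1% D reads. The first panel has a wider x axis, and its positions depend on the 0.5 reads added because the D count was 0 or 1 in every pool. In the other panels the 4 pools lie on one side of 0 for each gene except Rab11fip1.

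Of the 20 Rab GTPases, which mark membranes and recruit tethers and motors, 3 were B-high, 1 was D-high and 16 did not pass. Rab24, linked to autophagosome clearance, was read at 2 SNPs in its 3' UTR as 283 B and 315 D reads in the pool labelled BxD female, 257 and 357 in DxB female, 215 and 303 in BxD male and 228 and 286 in DxB male. The D allele was the higher one in every pool, and the log2 D to B ratio was 0.49 ± 0.13 (SE, 4 pools, adjusted p = 0.0193). The call was lost without the pool labelled DxB female (adjusted p = 0.124), BxD male (0.0721) or DxB male (0.0575), and with one library size per pool (0.0760). It was also lost with B-only and D-only SNPs left out of all genes (0.0523), although Rab24 has none. Rab4b, a GTPase of early endosome recycling, was read at 1 SNP in its 5' UTR as 67, 44, 59 and 53 B reads in the pools (always in the order BxD female, then DxB female, BxD male and last DxB male by label), with no D read in any of them (adjusted p = 3.43e-06). Since the study's sequencing found the B base in D mice at this position, the zeros do not measure the D allele of Rab4b, and no fold is given. Rab11b, of the recycling endosome, had 28 reads at 1 SNP of the 3' UTR, 8, 8, 10 and 2 B reads and no D read, so that the B reads were at least 9.33-fold higher (adjusted p = 0.00461). Rab8b, which acts in secretion to the cell surface, had 444 B and 265 D reads and a log2 ratio of -0.62 ± 0.15 (adjusted p = 0.0113). Its 2 SNPs differed: the SNP of the 5' UTR held 189 B reads and no D read, and the SNP annotated as intronic, which lies in an exon of Rab8b in GENCODE, held 255 B and 265 D reads. The ratio of Rab8b was 0.13 ± 0.14 without the first of these SNPs (adjusted p = 0.723), and the call also was lost without the pool labelled BxD female (0.0588), DxB female (0.0820) or DxB male (0.0871). Of the 13 Rab genes with at least 100 reads, those that did not pass lay between -0.17 (Rab5a) and 0.39 (Rab23). Rab2a and Rab2b, of traffic between the endoplasmic reticulum and Golgi, had log2 ratios of 0.23 and 0.30 and passed only in the paired fit (adjusted p = 0.0346 and 0.0208 there, 0.310 and 0.149 without the block).

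Rab6, the Golgi GTPase, is named because its SNPs went in opposite directions. It had 774 B and 895 D reads over 10 SNPs and a log2 ratio of 0.33 ± 0.12 (adjusted p = 0.0822, and 0.00819 in the paired fit). Within its 3' UTR the D share was 85.7% of 230 reads at chr7:107787836, 66.3% of 398 reads at chr7:107788183, 35.0% of 346 reads at chr7:107788247, 0% of 76 reads at chr7:107788782 and 87.1% of 93 reads at chr7:107789663. Of these SNPs, 3 passed as D-high and 2 as B-high, although all 4 pools had more D than B reads for the gene as a whole. The SNPs at chr7:107788183 and chr7:107788247 lie 64 bp apart.

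Of the 5 Rab effectors and Rab3 GAP subunits, 1 passed. Rab11fip1, a Rab11 effector of the recycling endosome, had 81, 70, 83 and 73 B reads and 158, 104, 142 and 63 D reads in the pools. The D allele was higher in 3 pools and lower in the pool labelled DxB male, and the log2 ratio was 0.69 ± 0.20 (adjusted p = 0.0295). Without that pool the adjusted p was 0.0107, without the pool labelled BxD female, DxB female or BxD male it was 0.183, 0.109 or 0.128, and with one library size per pool it was 0.0854. With B-only and D-only SNPs left out of all genes it was 0.0711, although Rab11fip1 has none. Of its 16 SNPs with at least 20 reads, 14 had more D than B reads, and none passed by itself. Rab3gap2, a subunit of the Rab3 GAP complex, had 1367 B and 1543 D reads, and its log2 ratio of 0.30 passed only in the paired fit (adjusted p = 0.0119, and 0.419 without the block). Rab11fip2, Rab11fip3 and Rab3gap1 had log2 ratios of -0.25, 0.05 and 0.09 and did not pass.

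TBC domain proteins stimulate GTP hydrolysis by Rabs. Of 15, 4 were B-high and 11 did not pass. Tbc1d14, an inhibitor of autophagosome formation, was read at 7 SNPs as 333 and 122, 311 and 131, 295 and 125, and 274 and 117 B and D reads in the 4 pools. The B allele was higher in every pool, and the log2 ratio was -1.16 ± 0.12 (adjusted p = 2.26e-05). This ratio came from 3 SNPs with 715 B reads and no D read, while the other 4 SNPs held 498 B and 495 D reads. Both kinds of SNP lie in one 3' UTR: the SNP at chr5:36834259 had 263 B and 286 D reads, and the SNP at chr5:36834320, 61 bp away, had 415 B reads and none from D. Without the 3 B-only SNPs the ratio was 0.08 ± 0.14 (adjusted p = 0.861). Tbc1d2b, a Rab GAP of endosomes and autophagy, showed the same split between 2 SNPs. Its missense SNP at chr9:90165372 had 267 B reads and no D read, its 3' UTR SNP at chr9:90098628 had 89 B and 92 D reads, and the gene's log2 ratio was -1.83 ± 0.27 with both (adjusted p = 0.000330) and 0.12 ± 0.33 with the second alone (adjusted p = 0.934). Tbc1d10a and Tbc1d8 each rested on 1 SNP, with 51 and 48 B reads and no D read, which allow D shares of up to 5.88% and 6.25%. The B reads were at least 17-fold and 16-fold higher (adjusted p = 0.00197 and 0.000287). The other TBC genes with at least 100 reads lay between -0.32 and 0.29. Tbc1d17 (-0.32) passed only in the paired fit (adjusted p = 0.0377, and 0.198 without the block). Tbc1d1, a Rab GAP that responds to insulin and holds back GLUT4 vesicles, had 107 B and 110 D reads and a log2 ratio of 0.15 ± 0.25 (adjusted p = 0.760).

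The sequences around the SNPs of genes whose SNPs disagreed are given because the disagreement lies between single positions. Each run is 25 bases of the plus strand of mm9, the SNP is the capital at position 13 counted from the left, and the substitution gives the B base, the position and the D base as the files list it. The first of each pair is the B-only SNP with the most reads and the other is the most deeply read SNP with reads from both alleles and different listed bases.
Tbc1d14 (chr5:36834308-36834332, 3' UTR, G13A): catgcaaacacaGcgccatgaggct
Tbc1d14 (chr5:36834247-36834271, 3' UTR, C13T): aatacgacagccCgcagatacactg
Tbc1d2b (chr9:90165360-90165384, missense, A13G): ggcgcgagtcaaAcacgaaccagcg
Tbc1d2b (chr9:90098616-90098640, 3' UTR, T13C): aaaacaggaaaaTgggtcatggaaa
Snx4 (chr16:33251628-33251652, missense, G13T): gaggccgcggtcGgtgaggagaacg
Snx4 (chr16:33298644-33298668, 3' UTR, T13C): atagaagcatacTgtacatggaaca
Vps52 (chr17:34102690-34102714, missense, G13A): ttaccaacttccGaaatggaaccag
Vps52 (chr17:34102640-34102664, synonymous, A13G): ttcctggaaggcAtcagtggagtcc

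**Figure D2:**
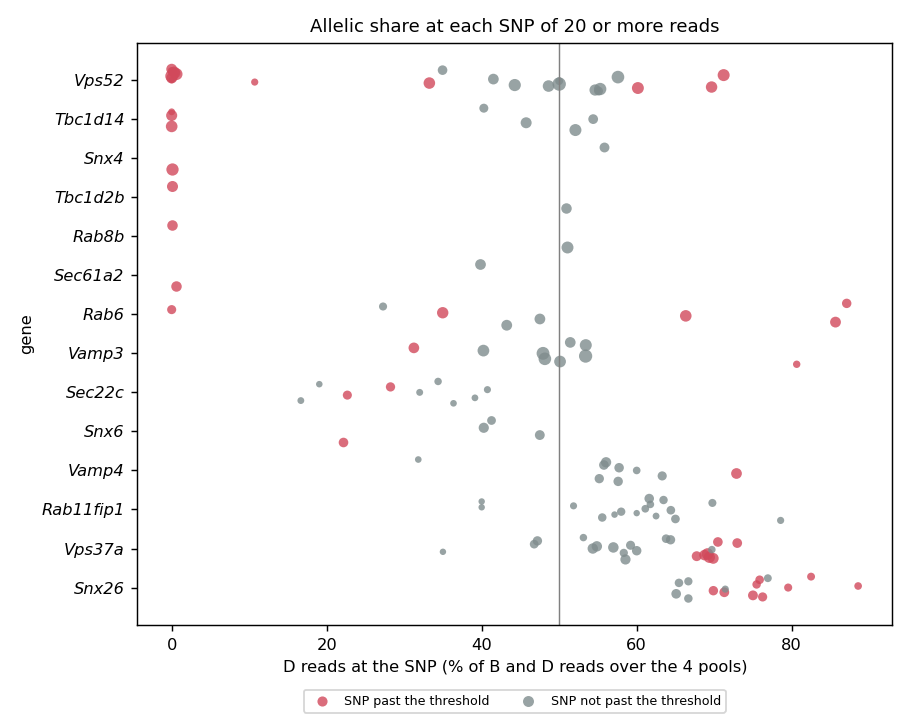
D reads as a percentage of B and D reads over the 4 pools (x axis) at each SNP with at least 20 reads, for 14 genes (y axis), with larger points for more reads and red for SNPs that passed. Vps52, Tbc1d14, Snx4, Tbc1d2b, Rab8b, Sec61a2 and Rab6 have SNPs at or near 0% beside SNPs read from both alleles, while all 15 SNPs of Snx26 lie above 50% and all 9 of Sec22c lie below it.

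Neither coat had a gene that passed without the block. The COPI and Arf group had 7 genes and the COPII and exit site group 9, and the genes of at least 100 reads lay between -0.20 and 0.31 in the first and between -0.36 and 0.31 in the second. Copa, the alpha subunit of the COPI coat and the most deeply read trafficking gene, had 2015 and 1737, 2216 and 1785, 2058 and 1716, and 1765 and 1377 B and D reads in the pools. Its log2 ratio of -0.16 ± 0.11 did not pass (adjusted p = 0.397) but did in the paired fit (adjusted p = 0.0172), with all pools between -0.09 and -0.23 after normalisation. Copb1 (0.31) and Cope (-0.20), also COPI subunits, passed in opposite directions in the paired fit alone (adjusted p = 0.0204 and 0.0401, and 0.104 and 0.414 without the block). Sec24b and Sec24d, COPII subunits that bind cargo, had 8070 and 8009 reads and log2 ratios of -0.01 ± 0.12 and -0.10 ± 0.14 (adjusted p = 0.977 and 0.688). Sec16a (0.31) and Sec16b (-0.36), scaffolds of the exit sites, passed in opposite directions in the paired fit (adjusted p = 0.0161 and 0.0396, and 0.0962 and 0.176 without the block). With one library size per pool and no block, Sec16b also passed as B-high (adjusted p = 0.0325). Arf1, the GTPase that recruits COPI, had 14 reads, 13 from B and 1 from D, a ratio of 13 with an exact 95% counting interval of 1.95 to 552. It did not pass without the block (adjusted p = 0.0542) and did in the paired fit (0.0388).

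Of 4 TRAPP genes, whose complex tethers vesicles at the Golgi, 2 were B-high. Trappc1 was read at 1 missense SNP as 72 and 29, 64 and 24, 78 and 34, and 53 and 24 B and D reads. The B allele was higher in every pool, with D shares that summed to 29.4% (95% Wilson interval 25 to 34.1), and the log2 ratio was -1.13 ± 0.19 (adjusted p = 0.000906). Trappc10 was read at 1 synonymous SNP as 46, 61, 44 and 57 B reads with no D read, which allows a D share of up to 1.44% and makes the B reads at least 69.3-fold higher (adjusted p = 8.06e-06). Trappc4 and Trappc6a had log2 ratios of -0.24 and -0.71 and did not pass.

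Of 11 SNARE genes and the SNARE regulator Vps45, 3 were B-high, 1 was D-high and 7 did not pass. Sec22c, of the endoplasmic reticulum to Golgi step, had 57 and 26, 82 and 25, 50 and 22, and 53 and 28 B and D reads in the pools. The B allele was higher at all 9 SNPs with at least 20 reads, which had D shares of 16.7% to 40.7%, and the log2 ratio was -1.12 ± 0.24 (adjusted p = 0.00498). Stx12, a syntaxin of endosomes, had 558 B and 349 D reads at 2 SNPs with D shares of 39.4% and 37.7%, and a log2 ratio of -0.56 ± 0.12 (adjusted p = 0.00560). Its call was lost without the pool labelled DxB female (adjusted p = 0.0528). Vps45, which binds syntaxins, was read 42 times from B and never from D at 1 missense SNP, and its B reads were at least 14-fold higher (adjusted p = 0.000954). Vamp4, a SNARE of the trans-Golgi network, was D-high with 131 and 215, 82 and 136, 90 and 106, and 65 and 88 B and D reads and a log2 ratio of 0.68 ± 0.20 (adjusted p = 0.0355). Of its 9 SNPs with at least 20 reads 8 had more D reads, but 217 of its 913 reads lay at the single SNP that passed. The call was lost without the pool labelled DxB female (adjusted p = 0.168), BxD male (0.0583) or DxB male (0.0953), and with one library size per pool (0.141). It was also lost with B-only and D-only SNPs left out of all genes. Vamp5 (-0.36), found in muscle and fat, passed only in the paired fit (adjusted p = 0.0105, and 0.0866 without the block).

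Of the SNAREs tied to GLUT4 delivery, Vamp3 and Vamp8 were read deeply and near evenly, while Vamp2 and Stx4 had no counted exon SNP. Vamp3 had 2721 B and 2637 D reads and Vamp8 had 1945 and 2040, with log2 ratios of 0.06 ± 0.13 and 0.19 ± 0.12 (adjusted p = 0.817 and 0.371). Rab8a, a GTPase of the same route, had 634 and 585 reads and a ratio of -0.01 ± 0.16 (adjusted p = 0.980). Vamp3 held 1 SNP that passed as D-high, with a D share of 80.6% of 31 reads, and 1 that passed as B-high, with 31.2% of 208 reads, among 10 SNPs whose sum was close to even.

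Of 15 sorting nexins, which bind phosphoinositides on endosomes, 3 were B-high, 1 was D-high and 11 did not pass. Snx26 had 81 and 203, 88 and 230, 56 and 140, and 41 and 136 B and D reads. The D allele was higher in every pool and at all 15 SNPs with at least 20 reads, whose D shares ran from 65.1% to 88.6%, and 9 SNPs passed by themselves. The log2 ratio was 1.55 ± 0.20, or 2.92-fold (adjusted p = 0.000102), and every alternative kept the call. Snx4, of recycling from early endosomes, had 215 and 25, 185 and 15, 175 and 21, and 158 and 10 B and D reads, a log2 ratio of -3.25 ± 0.18 (adjusted p = 6.23e-08). Its missense SNP had 675 B reads and no D read, and its other 2 SNPs had 58 B and 71 D reads. With those 2 alone the ratio was 0.38 ± 0.33 (adjusted p = 0.629). Snx18, of plasma membrane remodelling, had 200 B reads and no D read over 2 SNPs that lie 410 bp apart in one exon, with 78 and 122 reads. The B reads were at least 66.7-fold higher, with 49, 50, 49 and 52 of them in the pools (adjusted p = 4.51e-06). Snx6, a partner of the retromer, had 270 B and 166 D reads and a log2 ratio of -0.58 ± 0.19, at an adjusted p of 0.04996 that was just inside the threshold and was 0.0631 with DESeq2. Its call was lost without any 1 of the pools, with adjusted p-values from 0.0564 (without the pool labelled BxD female) to 0.251 (without DxB female). It was also lost with B-only and D-only SNPs left out of all genes. Snx5 (-0.37), which pairs with the same complex, and Snx22 (0.21) passed only in the paired fit (adjusted p = 0.0113 and 0.0335, and 0.105 and 0.258 without the block). The remaining sorting nexins lay between -0.25 (Snx1) and 0.43 (Snx33).

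Of 17 Vps genes, most of which act in the retromer, HOPS, GARP or ESCRT machineries, 2 were B-high, 1 was D-high and 14 did not pass. Vps37a, a subunit of ESCRT-I, had 294 and 498, 299 and 517, 222 and 416, and 233 and 383 B and D reads. The D allele was higher in every pool and at 18 of 21 SNPs with at least 20 reads, and the log2 ratio was 0.91 ± 0.13, or 1.88-fold (adjusted p = 0.000186). Its D shares were 58.6% to 69.9% in the 5' UTR, 67.7% and 68.8% at 2 synonymous SNPs and 35.0% to 73.0% over the 3' UTR. All 7 SNPs that passed were D-high, and each alternative that was run kept the call of the gene. Vps26b, a retromer subunit, was read at 1 SNP of the 5' UTR as 185, 187, 199 and 169 B reads and 0, 0, 1 and 1 D reads. There were 370 B reads for each D read, with an exact 95% counting interval of 102 to 3061 (adjusted p = 7.90e-09). Vps52, shared by the GARP and EARP tethers, was the second most deeply read trafficking gene with 1564 and 965, 1458 and 907, 1591 and 1032, and 1201 and 775 B and D reads. Its log2 ratio was -0.53 ± 0.11 (adjusted p = 0.00369), and the pools lay between -0.50 and -0.57.

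Along Vps52 the SNPs disagreed. Of its 23 SNPs with at least 20 reads, 8 were B-only, between chr17:34099126 and chr17:34103401, and together with 1 SNP of lower depth they held 2565 B and 5 D reads. Another 3 SNPs were D-high, with D shares of 60.2%, 69.7% and 71.2%, and 2 SNPs read from both alleles were B-high, with 33.2% of 388 reads and 10.7% of 28 reads. The others lay between 35.0% and 57.6%. In the paired fit the SNPs at chr17:34096218 and chr17:34102652 also passed as D-high, while 2 B-only SNPs, of 20 and 9 reads, did not pass. The B-only SNP at chr17:34102702, with 1025 B reads and no D read, lies 50 bp from the SNP at chr17:34102652 with 386 B and 524 D reads. For 2 of the SNPs no base difference between the strains is listed, and their B and D counts are equal, 851 each at the deeper one. Without the B-only SNPs the log2 ratio of Vps52 was 0.26 ± 0.11 (adjusted p = 0.190), and without those of equal bases too it was 0.32 (adjusted p = 0.0756). Of the other Vps genes, Vps13d, a lipid transfer protein, had 3719 B and 4013 D reads over 37 SNPs, the most SNPs of any trafficking gene, and a log2 ratio of 0.24 ± 0.13 (adjusted p = 0.278, and 0.0137 in the paired fit). Vps4a, the ATPase that takes ESCRT-III apart, had a log2 ratio of -0.51 (adjusted p = 0.0699, and 0.0447 in the paired fit). Vps35, the core of the retromer, had 4204 reads and a ratio of 0.03.

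**Figure D3:**
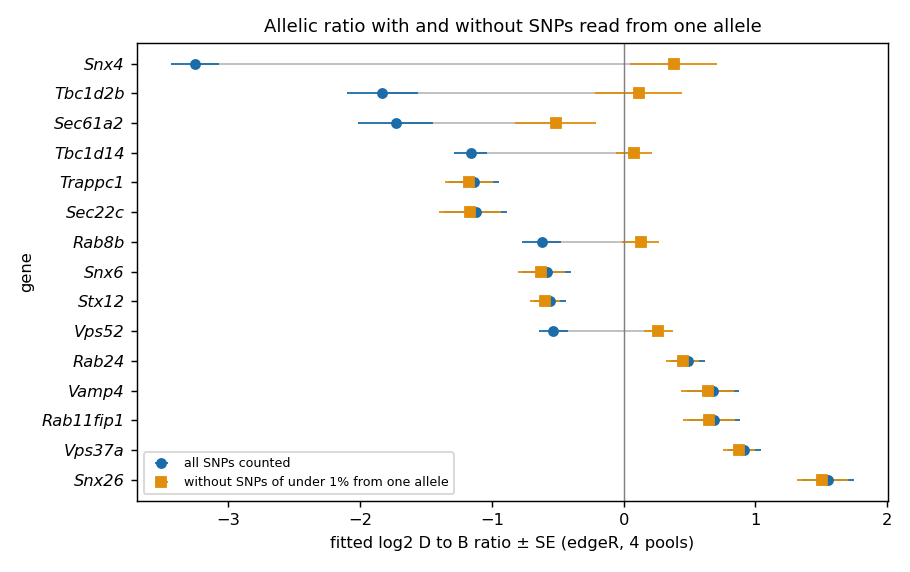
Fitted log2 D to B ratio ± SE over the 4 pools (x axis) for the 15 genes that passed and kept a SNP read from both alleles (y axis), with all SNPs (blue) and without B-only and D-only SNPs (orange). Snx4, Tbc1d2b, Tbc1d14, Rab8b and Vps52 move from below 0 to above it, Sec61a2 moves from -1.73 to -0.52, and the other 9 genes move little.

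A further 4 genes carry these names without a role in vesicle transport that is named above, namely Sec61a2 (a subunit of the protein channel of the endoplasmic reticulum), Sec14l1, Sec1 (a fucosyltransferase) and Vps72 (of a chromatin remodelling complex). Sec61a2 alone passed, with 83 and 21, 79 and 28, 97 and 30, and 54 and 8 B and D reads and a log2 ratio of -1.73 ± 0.29 (adjusted p = 0.000839). Of its 2 SNPs, one had 183 B reads and 1 D read and the other 130 and 86, and with the second alone the ratio was -0.52 ± 0.31 (adjusted p = 0.418).

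The genes whose exon reads lay on B-only SNPs alone had no exon SNP read from both alleles for comparison. The intron SNPs of Rab11b and Trappc10 are given below. Those of Tbc1d8 held 5 B and 8 D reads, and the intron SNP of Vps45 held 3 B reads and no D read. The SNPs of Vps26b and Trappc10, and those of 3 genes read from both alleles in every pool, are shown here in the same layout, since each carries the call of its gene or is its most deeply read position.
Vps26b (chr9:26837567-26837591, 5' UTR, T13G): cacagaactgccTggactcccgcgg
Trappc10 (chr10:77707206-77707230, synonymous, C13T): ggtgtagaccacCggtggctgtggc
Trappc1 (chr11:69139145-69139169, missense, C13T): tctacctgtctcCgagagctttccc
Snx26 (chr7:31307622-31307646, synonymous, T13C): ggtctgtccttcTgaatgtaaggac
Vps37a (chr8:41631733-41631757, 3' UTR, A13C): ggtccagatgcgAtgtagattgtct

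**Figure D4:**
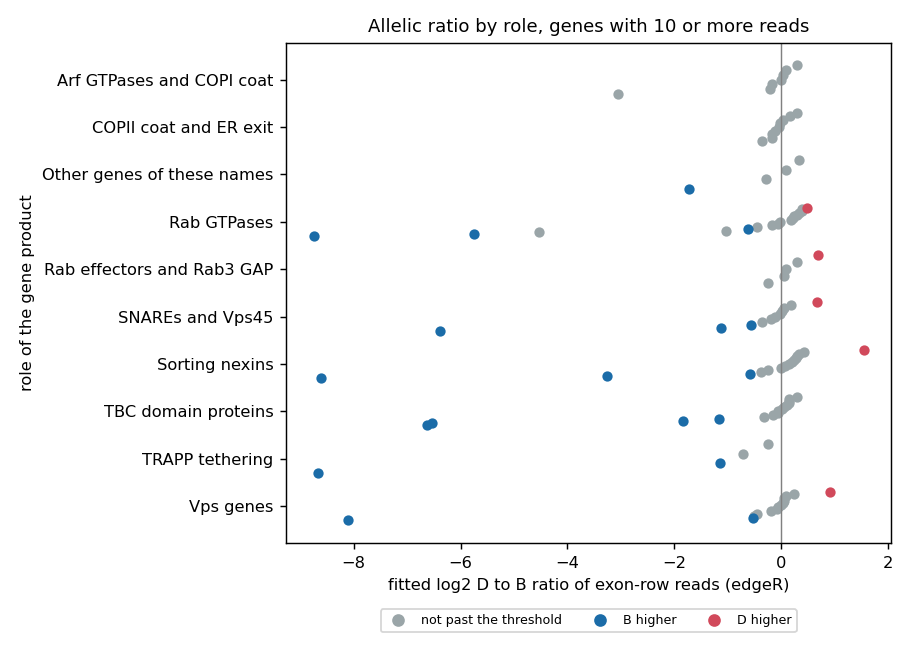
Fitted log2 D to B ratio (x axis) of the 101 trafficking genes with at least 10 reads, by role of the product (y axis), coloured by call. Most genes lie near 0, the points beyond -5 are genes read at B-only SNPs alone, and the COPI and COPII groups hold no coloured point.

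Over the 84 genes that did not pass, 70 had at least 100 reads and 56 of those lay within 0.3 of 0 on the log2 scale. Single SNPs were also tested, and 74 of 658 passed, 49 B-high and 25 D-high, or 11.2% against 12.2% of all SNPs tested (8.43% B-high and 3.74% D-high). In the paired fit 91 passed, or 13.8% against 14.7%. Of the 264 SNPs in 3' UTRs 23 were B-high and 10 D-high (8.71% and 3.79%, beside 8.26% and 3.85% of all 3' UTR SNPs). Of the 255 synonymous SNPs 9 and 12 were (3.53% and 4.71%, beside 5.96% and 4.12%), of the 61 missense SNPs 9 and 1 (14.8% and 1.64%, beside 11.7% and 3.43%), and of the 31 in 5' UTRs 7 and 2 (22.6% and 6.45%, beside 14.8% and 3.07%). Of the 25 B-only SNPs with at least 20 reads, 9 were in 3' UTRs, 8 were missense, 4 synonymous and 4 in 5' UTRs. Another listed SNP lay within a read length of 11 of the 25, a larger share than the 26.5% of the other SNPs of that depth. Of the 25, however, 8 lie in Vps52 and 3 in Tbc1d14, so they are not independent. The share for B-only SNPs of all genes was not computed, and the reason for the difference was not tested.

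The files also list SNPs of introns, which were read in 96 of the 107 genes with a median of 140.5 reads. This readout uses other SNPs of the same pools, and it was added after the data had been seen. Of the 96 genes, 15 passed, 9 D-high and 6 B-high, or 15.6% against 10.4% of all genes tested (4.01% D-high and 6.42% B-high). In the paired fit 11 passed, or 11.5% against 9.06%. In exons and introns alike 3 genes passed, each in the same direction, namely Snx26, Vps37a and Trappc10. The share of all genes that passed in both was not computed, so this count has no baseline. The intron SNPs of Snx26 held 21 and 67, 19 and 61, 13 and 34, and 10 and 35 B and D reads in the pools, a log2 ratio of 1.75 ± 0.27 (adjusted p = 5.35e-09) beside 1.55 in exons. For Vps37a they held 51 and 180, 40 and 226, 34 and 110, and 32 and 120, a log2 ratio of 2.13 ± 0.20 (adjusted p = 6.58e-25), which was higher than the exon ratio by 1.23 ± 0.25 (adjusted p of the difference 0.00194). The intron SNPs of Trappc10 held 19 B reads and no D read, with 13 of the reads at the most deeply read SNP. Its exon reads lie on B-only SNPs alone, and its intron call was lost in the paired fit (adjusted p = 0.00111, and 0.0514 with the block).

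The intron and exon ratios were compared directly in 1 model, and 14 of 96 genes differed, or 14.6% against 9.43% of all genes tested. In the paired fit 17 differed, or 17.7% against 15.3%. That fit lost Arf1 (adjusted p = 0.0452, and 0.0585 with the block) and added Cope, Tbc1d14, Vps35 and Vps52. The exon ratios of Tbc1d14 and Vps52 lay below 0 only with their B-only SNPs. Exons of the same gene in GENCODE held 76.6% of the intron reads of Cope and 52.7% of those of Vps52. Of the 14, 7 also differed with each pool left out. Rab11fip2 had 72 B and 225 D reads in introns, a log2 ratio of 1.77 ± 0.26, against -0.25 in exons (adjusted p of the difference 6.41e-05), and the D allele was higher in the introns in every pool. Vps39, of the HOPS tether, had 21 B and 85 D intron reads against 590 and 561 in exons (adjusted p = 0.000815), although 63.2% of its intron reads lay at 1 SNP and the remainder were 12 B and 27 D reads. Tbc1d23, a Golgi tether with a TBC domain, went the other way, with 222 B and 96 D intron reads, a log2 ratio of -1.10 ± 0.24, against 0.29 in exons (adjusted p = 0.00135). Trappc1 had 85 B and 91 D intron reads, beside 267 and 111 at its exon SNP (adjusted p = 0.00866), and this difference did not hold with each pool left out (highest adjusted p = 0.0807). Exons of other genes in GENCODE held 72.6% of the intron reads of Rab11b and 87.3% of those of Snx30. In Rab11b those reads lay at 1 SNP, and the other intron SNPs held 203 B and 148 D reads, beside 28 B reads and no D read in the exon. In Snx30, with 430 B and 41 D intron reads in all, the SNPs other than the most deeply read held 20 B and 41 D reads. The other genes that differed were Arf1 (14 exon reads), Rab11fip3, Rab3gap2, Rab8a, Sec61a2, Tbc1d8, Vamp5 and Vps37a. The exon read counts of Rab11b and Tbc1d8 lie on B-only SNPs alone, and Tbc1d8 had 13 intron reads. Without its B-only SNP the exon ratio of Sec61a2 was -0.52, beside 0.10 in introns. The genes named from the intron comparisons were chosen after their values were seen.

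**Figure D5:**
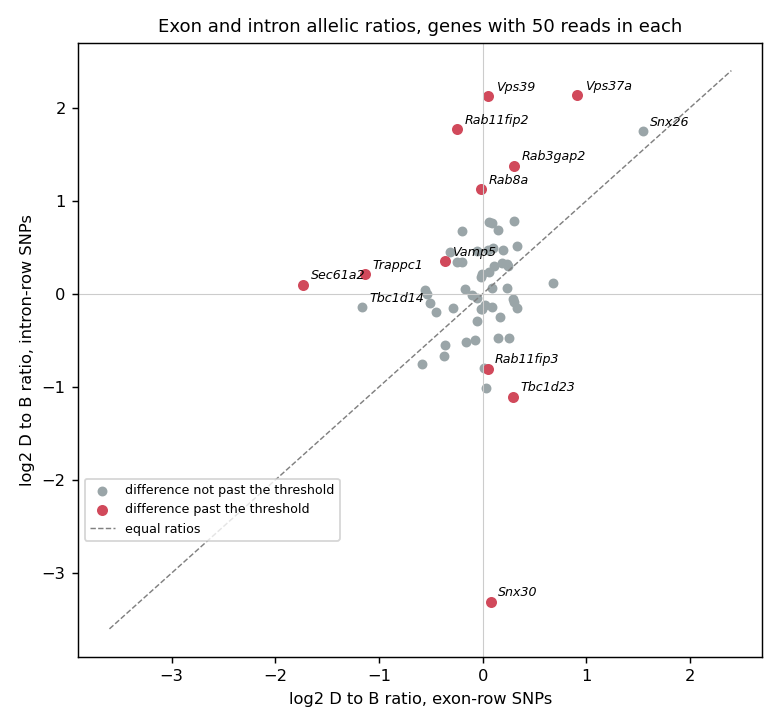
Log2 D to B ratio at exon SNPs (x axis) and intron SNPs (y axis) of the 62 trafficking genes with at least 50 reads in each, with red for genes whose ratios differed. Snx26 lies near the dashed line of equal ratios, while Vps39, Rab11fip2, Rab3gap2, Rab8a and Vps37a lie above it and Tbc1d23 and Snx30 below it.

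The reciprocal crosses ask whether the parent that gave an allele matters. By the labels 0 of 107 trafficking genes passed this test in edgeR, 0 had an unadjusted p under 0.05, and DESeq2 gave 0 of each, beside 0% of all genes. If the file names are right, the labels swap mother and father in 2 pools, and a parental effect would cancel over the pools. The label result then cannot show that such an effect is absent. The labels would swap the sexes of the same 2 pools, so the label results by sex below have the same limit. With the file-name identities 0 trafficking genes and 5 genes in all passed (0.0624%), and with only the 2 pools of undisputed identity 0 and 1 passed (0.0125%). A different allelic ratio in the sexes was found in 0 trafficking genes with the labels, with 0 at an unadjusted p under 0.05 in edgeR and in DESeq2, beside 8 genes in all (0.0998%), and in 0 trafficking genes with the file names. In simulated counts of 7873 genes, with differences placed only in genes of at least 100 reads, this test recovered 29.7% of 2-fold and 96.3% of 4-fold differences between the sexes. It thus had little power for 2-fold differences in the simulation, and its power in these data was not measured. Between males and females the summed B and D level differed in 0 trafficking genes by the labels (1 at an unadjusted p under 0.05 in edgeR and 0 in DESeq2, with 0% and 0.0499% of all genes called). With the file names 0 passed in edgeR (8 at an unadjusted p under 0.05) and in DESeq2 (4), beside 2.52% and 1.66% of all genes. Only a model with the file-name sexes and the cross as a covariate, added after the data were seen, called 3 trafficking genes, beside 4.85% of all genes. Rab3gap2 had 136 and 151 CPM in the pools labelled BxD female and BxD male, both female by the file names, and 225 and 221 in the pools labelled DxB female and DxB male (log2 male to female ratio 0.64 ± 0.16, adjusted p = 0.0182). Rab30 had 22.9 and 24.5 against 11.4 and 14.6, and Tbc1d16 had 16.9 and 24.8 against 10.4 and 10.9 (adjusted p = 0.0458 and 0.0488). These 3 genes were called by this same contrast, so the separation of their values adds nothing to the calls. Of the 7 marker lists with reads, 4 also had values that did not overlap between these pairs of pools. The share of all genes that separate in this way was not computed, so this count has no baseline. Wt1, the 1 mesothelial marker of 4 with reads, had 75.3 and 43.4 CPM in the pools that are female by the file names and 20.8 and 16.1 in the others, and the brown fat markers had 34.0 and 444 against 2.42 and 6.07. Cd68, the 1 macrophage marker of 7 with reads, had 389 and 236 against 438 and 501, and Cd3e and Cd8a of lymphocytes, 2 of 6, summed to 8.13 and 0.736 against 0.483 and 0.607. The part of these cells in the 3 levels was not tested. Since each pool is bulk tissue, a different number of cells of a type and a different amount of RNA per cell cannot be told apart here.

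Other genes of the trafficking pathway, which do not carry these names, were counted from a list. Of 68 that were tested 16 passed, 13 B-high and 3 D-high, or 23.5%, beside 17.9% of all genes, and the median log2 ratio was -0.08. In the paired fit 22 passed, 17 B-high and 5 D-high, the 16 among them, or 32.4% beside 28.3%. Of the 13 B-high genes, 6 had under 1% D reads, namely Igf2r (311 B reads and no D read), Rabgef1 (973 B and 1 D), Exoc8 (199 B and none), Cog4 (613 and 2), Chmp1a (113 and none) and Golga4 (67 and none). The D-high genes were Sorl1, a sorting receptor of endosomes (1964 B and 3484 D reads, log2 ratio 0.96 ± 0.20, adjusted p = 0.0047), Scfd2 (0.63) and Golga3 (0.46). Without SNPs of under 1% from one allele 7 of 61 passed, 5 B-high and 2 D-high, or 11.5% beside 9.15% of all genes. Among those 5 were Exoc5, a subunit of the exocyst (626 B and 194 D reads, log2 ratio -1.56 ± 0.13 with every SNP counted), and Use1, a SNARE of the endoplasmic reticulum (1470 and 708 reads, -0.92 ± 0.14).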

How the data were processed

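The authors aligned 50-base reads to mm9 with mrsFAST, allowing 3 mismatches, and the reads left over with TopHat, treating the mates of a pair as single reads. The submitters' processing notes also name CASAVA. Whether the D variants were masked is described in more than one way in the sources used here. The deposited values are raw counts of B and D reads per SNP, with no normalization and no removal of PCR copies, so that intervals and floors cover counting error only.

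Autosomal SNPs marked as exon were used, and a run of SNPs each within 18 bp of the next was reduced to its first. A SNP listed for 2 genes counted for both. Counts were summed per gene and allele, and the 8 allele libraries were fitted in R 4.3.3 with edgeR 4.0.16 (TMM, quasi-likelihood test, Benjamini-Hochberg adjustment over all genes, threshold 0.05), without the pool as a term. DESeq2 1.42.0 was an alternative. The alleles of a pool come from the same animals, and their deviations correlated (r = 0.522 to 0.634 over 5163 genes), so the fit with the pool as a replicate block is given for the counts of calls between alleles and where it changed the call of a named gene. As the alleles share animals and each combination of cross and sex has 1 pool, p-values measure the spread between these 4 pools. Parent of origin, strain by sex and level by sex were fitted likewise. In simulated counts of 7863 genes, 90.1% of 2-fold and 100% of 4-fold strain differences were recovered, while for strain by sex (7873 genes) these were 29.7% and 96.3%. The simulated alleles of a pool were drawn independently, with differences only in genes of at least 100 reads. These rates are therefore not the power of the tests in the data. Sequences were read from NCBIM37 (mm9), and 105 of the 107 symbols matched GENCODE M1.

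The members and lists were chosen with earlier results of these data known. Named genes are those that passed with all 4 pools in one direction (at most the 10 largest and 10 smallest ratios), the 5 most deeply read, those of GLUT4 vesicles with at least 20 reads and those with SNPs in opposite directions. The other B-high genes, Rab11fip1 and the genes called in the paired fit alone were chosen after their values were seen.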

Additional observations from a re-analysis of the deposited data

Results flagged for a closer look

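The ratios of 32 named genes were checked for a pool far from the other 3, and 2 genes had one, while chance alone gives about 1 in 20. In Tbc1d14 the normalised log2 D to B ratio was -1.32 in the pool labelled BxD female and -1.12 to -1.09 in the others. In Rab11b it was -2.19 in the pool labelled DxB male, where 2 B reads were counted, and -4.28 to -3.96 in the others, with no D read in any pool.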

How the results depend on the processing

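The 23 genes called between the alleles were 17 to 20 with each pool left out (D-high 2 to 4, with 2 without the pool labelled BxD male or DxB female and 3 without DxB male), 39 with the pool as a replicate block (13 D-high), which otherwise moved no count of calls by over 1.5 times, and 6 without SNPs of under 1% from one allele (3 D-high, 3 B-high). With one library size per pool 2 were D-high. Genes whose intron and exon ratios differed were 8 to 11 with each pool left out, 8 without the pool labelled BxD female or DxB female, and genes called by level were 3 with file-name sexes and the cross as a covariate. Single ratios crossed 0 without SNPs of under 1% from one allele in Rab8b (0.13), Snx4 (0.38), Tbc1d14 (0.080), Tbc1d2b (0.12) and Vps52 (0.26, or 0.32 without SNPs of equal bases too). Ratios near 0 crossed it in Sec24b (0.019 with SNPs at least 50 bp apart, -0.056 to 0.033 with each pool left out), Rab8a (0.0035 in the paired fit, -0.083 to 0.10 with each pool left out, 0.19 without intronic annotations), Tbc1d1 (-0.00062 to 0.30 with each pool left out) and Vamp3 (-0.0039 with all exon SNPs, -0.056 with one library size per pool). Over the named genes and the alternatives, 526 of the refitted ratios kept their direction and side of the threshold, 38 lost the call, 6 gained it and 18 changed sign. The causes were not tested.

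Depth limits the genes with few reads, 6 of which had under 10, and a gene read at 1 exon SNP has no other exon position for comparison. The X chromosome reads go against 2 labels, so results by parent or sex rest on an identity that is in doubt, while results between alleles do not use it.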
